A study of Mus musculus with 6 samples.

Results

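To determine which nutrient receptors of the enteroendocrine L-cell are transcribed in mGLUTag cells, and whether their mRNA differs between opposite phases of the clock, 9 receptors for fatty acids, bile acids, amino acids and calcium were examined by microarray. The members were all probes whose symbol is FFAR1, FFAR2, FFAR3, GPR120 or O3FAR1 (older names of Ffar4), GPR119, GPBAR1, CASR, GPRC6A or NR1H4. The array carried a probe for each of the 9 genes and a second probe for Ffar3, so that 10 of its 45281 probes were members. Each gene had its present name on the array except Ffar4, which was listed as GPR120. mGLUTag cells are an immortalized line of murine L-cells, given as male by the study, that secretes glucagon-like peptide-1 (GLP-1). All cells had been starved in low serum, synchronized with forskolin, which raises cAMP, and returned to growth medium. RNA was taken at 4 h (n = 3) and 16 h (n = 3), the phases of highest and lowest Arntl (BMAL1) in the study's design, and each sample was hybridized to 1 array. Every sample carried the same genotype and treatment, and the time point was the only difference between the groups. The cells are a single line, and no source says that arrays of a group stem from separate cultures, so p-values measure the spread between these arrays, which may be technical.

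L-cells sit in the intestinal epithelium and release GLP-1 when nutrients reach the gut lumen. Long-chain fatty acids act on FFAR1 and FFAR4, fat-derived lipid amides and monoacylglycerols on GPR119, short-chain fatty acids from the microbiota on FFAR2 and FFAR3, and bile acids on the membrane receptor GPBAR1 (TGR5) and the nuclear receptor FXR, which is encoded by Nr1h4. CASR and GPRC6A are related family C receptors that sense calcium and amino acids. GPR119 and GPBAR1 couple to Gs and raise cAMP, whereas FFAR1 signals mainly through Gq and calcium.

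The deposited intensities are on a linear scale with background subtracted, are not normalized between arrays, and carry no detection p-values. A noise limit was therefore set for each array at the 99th percentile of its values below 0 with their sign turned, and lay between 9.2 and 14 intensity units. Of all probes, 33% exceeded the limit of every array and 38.4% that of 3 or more; such probes are called detected on those arrays. The 4 h arrays were brighter, with a ratio of mean intensity of 1.37. The 3 probes for 18S ribosomal RNA were highest on 4 h replicates 1 and 3 and 16 h replicate 1. Of 13 L-cell markers, 10 were detected on every array, among them Gcg and Insl5, whereas Pyy was detected on none and Pcsk1 on 1. None of 13 markers of enterocytes, Paneth cells and immune cells with a probe lay above the limit on more than 1 array. Above it on no array were 5 of 6 enterocyte, 4 of 4 immune cell and 0 of 3 Paneth cell markers. These groups were set apart from the other lists, so they are no check of the limit. Of the other lists, 1 of 5 goblet cell markers (Tff3), 1 of 3 tuft cell markers (Dclk1), 1 of 5 fibroblast markers (Col1a1) and 3 of 7 genes of other enteroendocrine cells (Cck, Nts and Sct) were detected on every array. Muc2, Agr2, Clca1, Pou2f3, Trpm5, Col1a2, Col3a1, Dcn, Sst, Tph1 and Ghrl were detected on none. In bulk RNA, fewer cells of a type and less RNA per cell cannot be told apart.

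Of the 9 receptors, 5 exceeded the noise limit of every array. These were Ffar4, Gpr119, Gpbar1, Nr1h4 and Gprc6a. Ffar1 and 1 probe of Ffar3 lay above it on 4 arrays each, and Casr and Ffar2 on 1 and 0 arrays. The count of 5 was the same with the limit at the 95th or a stricter percentile, with a common limit for all arrays, with scaled values and when any array was left out. No level is compared between receptors, since different probes bind with different strength.

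**Figure D1:**
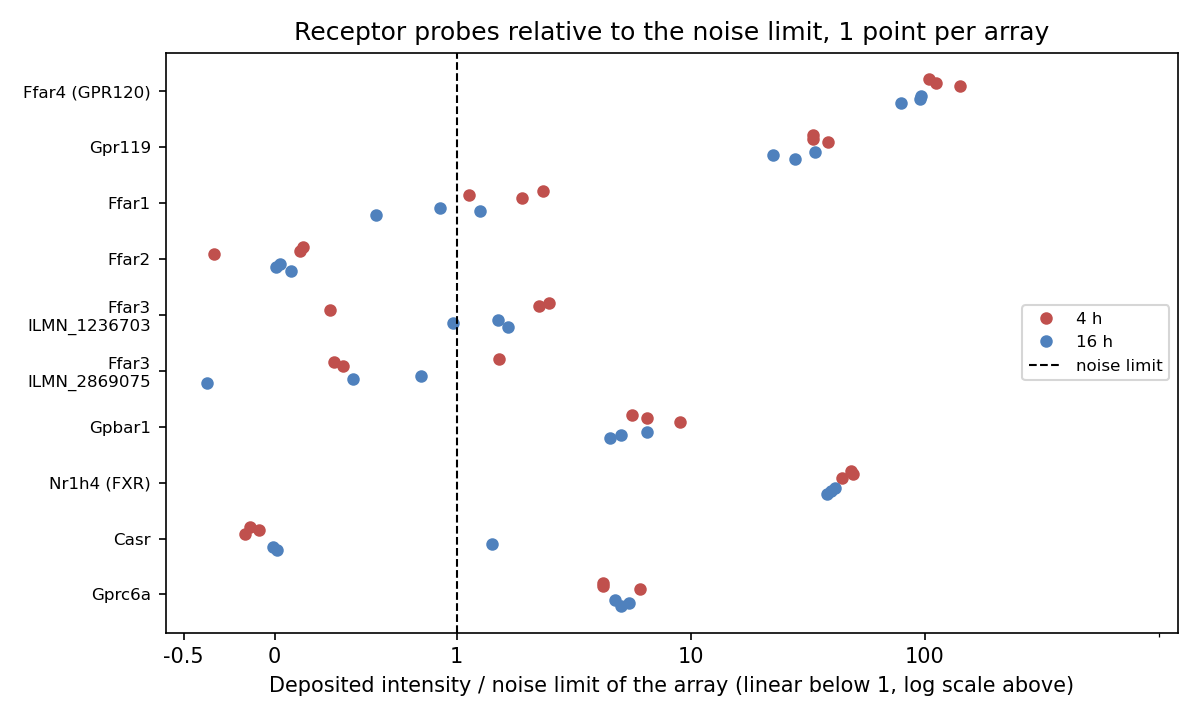
Deposited intensity of each receptor probe divided by the noise limit of its array (horizontal axis, no unit, linear below 1 and logarithmic above), with 1 point for each 4 h (red) and 16 h (blue) array. Points to the right of the dashed line at 1 lie above the limit; all 6 points do so for Ffar4, Gpr119, Gpbar1, Nr1h4 and Gprc6a.

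The long-chain fatty acid receptor Ffar4 (probe ILMN_2746895) had deposited intensities of 1454.9, 1291.5 and 1716.5 on the 4 h arrays and 940.9, 1002.6 and 725.9 on those at 16 h. It was between 78.9 and 140.7 times the noise limit of its array, and every 4 h value lay above every 16 h value. Gpr119 (ILMN_2591255) had intensities of 467.8, 384.6 and 471.1 on the 4 h arrays and 334, 236.1 and 256.9 on those at 16 h, between 22.5 and 38.6 times the limit. Its 4 h values also lay above those at 16 h. Such separation was found for 49.2% of all probes detected on every array. Ffar1 (ILMN_2750208) was close to the limit, at 32.7, 13 and 23.2 on the 4 h arrays and 8.9, 13.2 and 5.1 on those at 16 h. All 3 of the 4 h arrays but only 1 of the 16 h arrays placed it over the limit, and the time points overlapped. Division by array brightness gave scaled intensities of 18.5 ± 6.24 on the 4 h arrays (SD, n = 3) and 10.6 ± 3.81 on the 16 h arrays (SD, n = 3). The noise limits on that scale were between 9.58 and 11.1 at 4 h and between 11.3 and 12.6 at 16 h.

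The bile acid receptors were both above background. Nr1h4 (ILMN_2727013) had intensities of 678.9, 572.5 and 537.1 on the 4 h arrays and 404.1, 418.3 and 350.2 on those at 16 h, between 38.1 and 49.4 times the limit. Gpbar1 (ILMN_1248346) had intensities of 78.5, 75.4 and 109.9 on the 4 h arrays and 63.5, 52.9 and 41.6 on those at 16 h, between 4.52 and 9.01 times the limit. For each of the pair, the 4 h arrays were the brighter ones without overlap before normalization. This held for 49.2% of all probes detected on every array.

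The short-chain fatty acid receptors were at or near background. Ffar2 (ILMN_2756046) had intensities of 2.2, 1.6 and -4.1 on the 4 h arrays and 0.3, 0.1 and 0.8 on those at 16 h, which gives no change to report. The Ffar3 probe ILMN_1236703 had intensities of 34.8, 25.9 and 3.7 on the 4 h arrays and 14.7, 10.3 and 15.2 on those at 16 h, and exceeded the limit on 2 of 3 arrays at each time point. The other Ffar3 probe, ILMN_2869075, exceeded it only on 4 h replicate 1, at 21.3. Neither probe of this gene was detected on every array. In the RefSeq gene table of assembly GRCm38.p6, Ffar2, Ffar3 and Ffar1 are consecutive protein-coding genes on chromosome 7, and none of these 3 neighbours was detected on every array.

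Of the family C receptors, Gprc6a (ILMN_2588955) was above background, with intensities of 58.9, 49 and 74.1 on the 4 h arrays and 46.5, 57 and 46.2 on those at 16 h, between 4.21 and 6.07 times the limit. It was the receptor above background whose time points overlapped in the deposited values. Casr (ILMN_2588631) was at -1.9, -1 and -2 on the 4 h arrays and 13.8, -0.1 and 0.1 on those at 16 h, and exceeded the limit only on 16 h replicate 1.

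**Figure D2:**
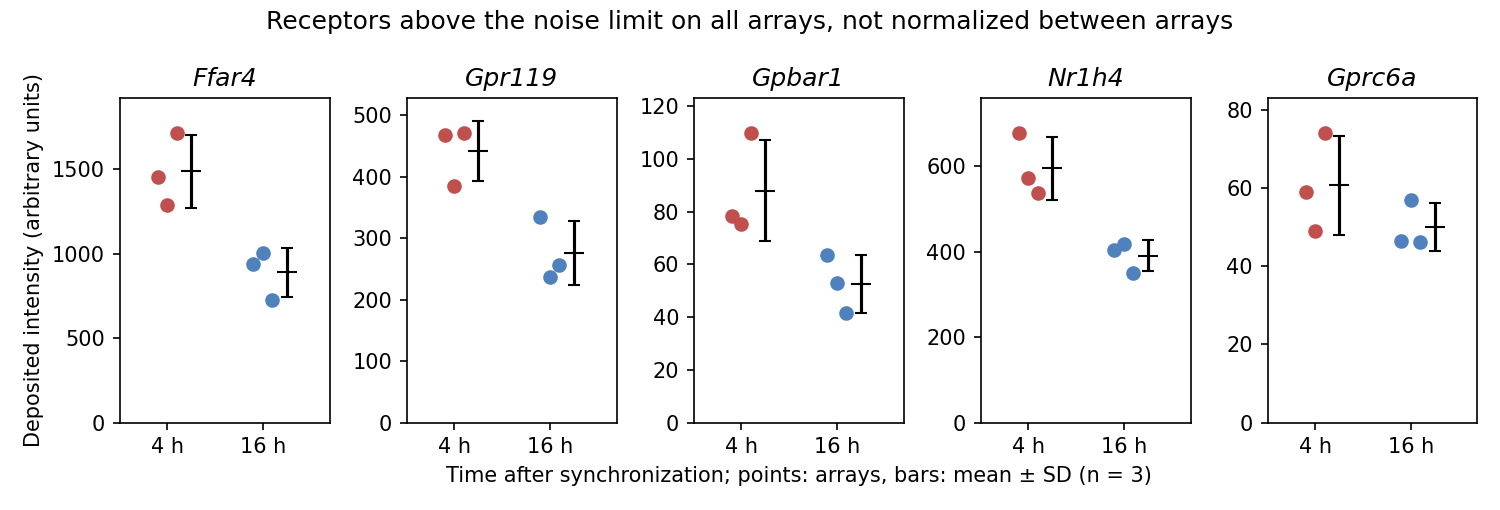
Deposited intensity in arbitrary units (vertical axes, each from 0) of the 5 receptors detected on every array, at 4 h (red) and 16 h (blue), with 1 point per array and the mean ± SD (n = 3) as bars. The values are not normalized between arrays; the time points overlap for Gprc6a alone.

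The time points were then compared. Since the deposited values include the greater brightness of the 4 h arrays, the receptors were first set against all 14941 probes detected on every array. A higher mean intensity at 4 h was found for 98.2% of these probes, and for all 5 receptors. Of the same probes, 49.2% had no overlap with the 4 h arrays brighter, as did 4 of the 5 receptors. The median ratio of these probes was 1.46, with a range from 1.32 to 1.63 between the 25th and 75th percentiles. The ratio was 1.67 for Ffar4, 1.67 for Gpbar1, 1.60 for Gpr119, 1.53 for Nr1h4 and 1.22 for Gprc6a. Ffar4 and Gpbar1 thus lay above the 75th percentile, and 12.8% of the probes had a lower ratio than Gprc6a.

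**Figure D3:**
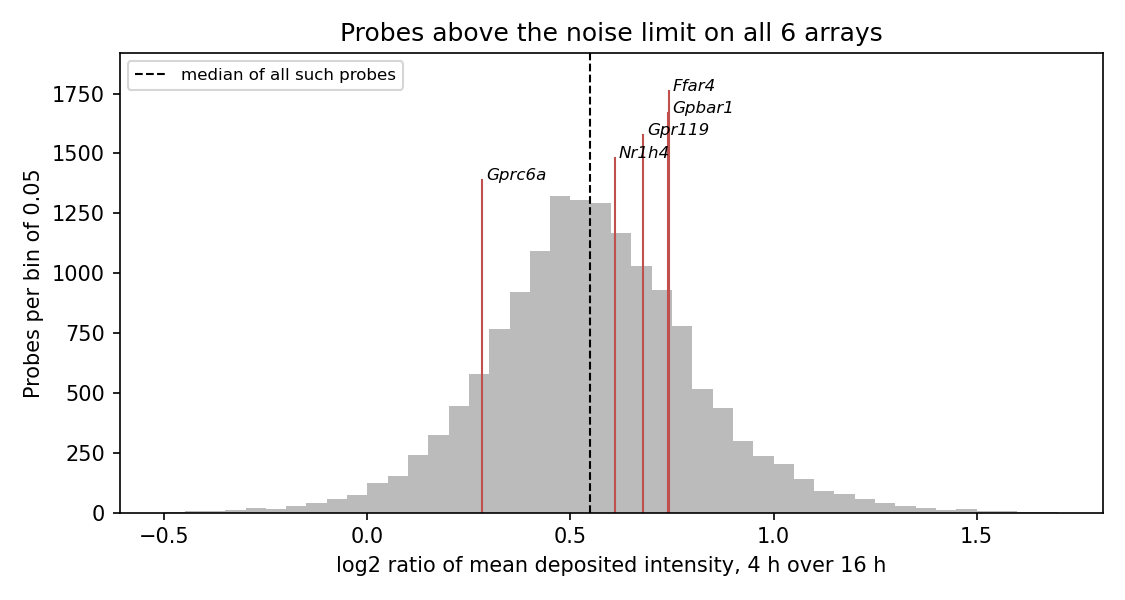
Number of probes (vertical axis) by log2 ratio of mean deposited intensity at 4 h over 16 h (horizontal axis) for the probes detected on every array, except 20 with ratios beyond the axis. The dashed line marks their median, 0.55, and the red lines the 5 receptors, from 0.28 for Gprc6a to 0.74 for Ffar4.

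After quantile normalization, no receptor passed the threshold of 0.05 in limma with Benjamini-Hochberg adjustment over all 45281 probes, where 4 probes passed (0.00883%), 2 in each direction (0.00442%). At an unadjusted p under 0.05, 1 of the 10 receptor probes remained, that of Ffar4, against 5.41% of all probes (2.81% higher and 2.6% lower at 4 h). Separate ranges at 4 h and 16 h in normalized values were found for 2 of the 10, Ffar4 (higher at 4 h) and Casr (lower at 4 h, within the noise on 5 arrays), against 10.9% of all probes (5.54% higher and 5.38% lower). Counts this small are given as a description.

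Ffar4 had a normalized log2 intensity of 10.35 ± 0.14 on the 4 h arrays (SD, n = 3) and 10.12 ± 0.09 on the 16 h arrays (SD, n = 3). The log2 change was 0.22 (SE 0.088, unadjusted 95% interval 0.03 to 0.42, limma adjusted p = 0.877). Of the probes detected on every array, 12.8% changed by more. An exact two-sided permutation test of its scaled intensity gave p = 0.1, and no smaller p is possible with 3 arrays in each group. Any probe without overlap in scaled values gets this p, so the test adds nothing to the separate ranges. For the other receptors with a change, this permutation test gave p between 0.2 and 0.9. Among these, Ffar1 met the filter of detection on 3 arrays through the 4 h group. Without between-array normalization the change of Ffar4 was 0.71 and passed the threshold (limma adjusted p = 0.0420). That setting put the median of all detected probes at 0.39 and called 2308 of all 45281 probes higher and 0 lower.

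Among the other fat-sensing receptors, Gpr119 was at 8.74 ± 0.03 on the 4 h arrays (SD, n = 3) and 8.62 ± 0.25 on the 16 h arrays (SD, n = 3) on the normalized log2 scale. Its log2 change was 0.11 (SE 0.11, 95% interval -0.14 to 0.37, limma adjusted p = 0.962). Without 16 h replicate 2, the lowest array of Gpr119, the change was -0.028, and without 16 h replicate 1 it was 0.20. Without between-array normalization it was 0.59 and passed the threshold (limma adjusted p = 0.0453). There, 2308 of all 45281 probes were called higher, and the median detected probe was at 0.39. Ffar1 had a fitted log2 change of 0.15 (SE 0.076, 95% interval -0.02 to 0.32, limma adjusted p = 0.921). It met the filter of 3 arrays through the 4 h group, and 2 of its 3 values at 16 h lay below their limits, so the fitted value is not a measured fold. Its size also depends on the offset of 50 added during background correction, which compresses dim probes: it was 0.27 with an offset of 16, 0.81 with linear scaling and 0.89 without background correction, values that rest on the same 16 h arrays.

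Nr1h4 changed by 0.05 (SE 0.095, 95% interval -0.16 to 0.27, limma adjusted p = 0.979). It changed by -0.015 without 4 h replicate 2 and by 0.16 without 4 h replicate 3. It also passed the threshold without between-array normalization, at 0.54 (limma adjusted p = 0.0390). In that setting 2308 of all 45281 probes were called higher, and the median detected probe was at 0.39. Gpbar1 changed by 0.08 (SE 0.093, 95% interval -0.13 to 0.29, limma adjusted p = 0.966). Its value was 0.018 without 4 h replicate 3, 0.053 without 4 h replicate 2 and 0.17 without 4 h replicate 1. It was 0.15 without background correction, 0.20 with linear scaling and 0.42 without between-array normalization. Ffar3, by its brighter probe, changed by 0.02 (SE 0.12, 95% interval -0.25 to 0.29, limma adjusted p = 0.996), a direction that was reversed in 5 of 17 alternatives.

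Gprc6a was the receptor above background with a change below 0. It was at 6.80 ± 0.11 on the 4 h arrays (SD, n = 3) and 6.96 ± 0.10 on the 16 h arrays (SD, n = 3). The log2 change was -0.15 (SE 0.083, 95% interval -0.34 to 0.04, limma adjusted p = 0.924). It was -0.33 without background correction, -0.27 with linear scaling and -0.091 without 4 h replicate 1. The sign turned, for a cause not tested, under settings that did not bring the median detected probe near 0. The change was 0.17 without between-array normalization, against 0.39 for the median detected probe, and 0.079 under median scaling, against 0.30. Ffar4 and Gprc6a therefore had opposite signs after quantile normalization, but neither change passed the threshold.

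**Figure D4:**
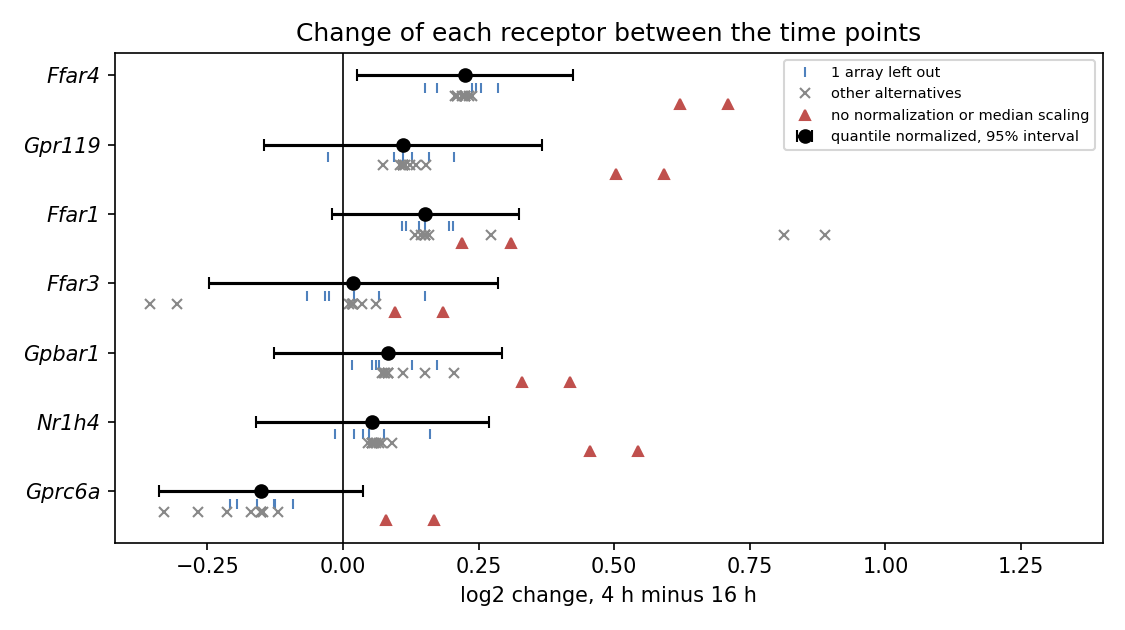
Log2 change, 4 h minus 16 h (horizontal axis), of the 7 receptors detected on at least 3 arrays, with the quantile-normalized estimate and its unadjusted 95% interval in black, values with 1 array left out in blue, other alternatives in grey, and no between-array normalization or median scaling in red. The interval of Ffar4, from 0.03 to 0.42, is the one that does not cross 0. Ffar1 met the filter of 3 arrays through the 4 h group, and its values are not a measured fold.

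The study sought targets that connect the rhythm of Bmal1 with GLP-1 secretion. The 250 bases before the annotated start of each receptor gene were therefore searched on both strands for the E-box CACGTG. Its noncanonical forms were also searched (CATGTG first, then also CATGCG, and as the last form CACGCG). Because the cells were synchronized with forskolin, the cAMP response element TGACGTCA was searched as well. RefSeq promoter sequences of GRCm38.p6 were matched for all 9 genes. None of these words was found in the 250-base window of Ffar4, Gpr119, Nr1h4, Ffar1 or Casr. Sequence farther upstream, where E-boxes can also lie, was not searched. The E-boxes that the study examined before Scgn all lie farther upstream than such a window reaches. Some E-box word was found in 27.4% of 32851 such windows. The windows shown are those of Ffar4, the receptor with an unadjusted p under 0.05, of Gpbar1 and Gprc6a, which lay above background and hold CATGTG or its reverse complement, and of Ffar2 and Ffar3, which were at or near background. The window of Ffar2 holds the full E-box, and that of Ffar3 holds CACATG and the cAMP response element. Capitals mark the words found.
Ffar4: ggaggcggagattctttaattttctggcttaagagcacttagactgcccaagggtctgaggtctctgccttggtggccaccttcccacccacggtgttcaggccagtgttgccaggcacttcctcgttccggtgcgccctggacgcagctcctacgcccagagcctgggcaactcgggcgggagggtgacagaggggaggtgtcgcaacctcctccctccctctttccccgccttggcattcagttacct
Gpbar1: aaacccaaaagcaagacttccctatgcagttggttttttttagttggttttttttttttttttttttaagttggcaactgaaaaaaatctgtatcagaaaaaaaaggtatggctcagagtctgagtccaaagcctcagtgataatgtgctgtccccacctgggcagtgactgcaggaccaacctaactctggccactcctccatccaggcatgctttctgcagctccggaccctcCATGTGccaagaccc
Gprc6a: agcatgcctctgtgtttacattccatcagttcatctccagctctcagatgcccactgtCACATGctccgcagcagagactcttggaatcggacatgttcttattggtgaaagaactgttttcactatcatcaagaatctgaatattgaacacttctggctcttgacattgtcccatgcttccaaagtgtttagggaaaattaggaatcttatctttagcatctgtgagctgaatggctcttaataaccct
Ffar2: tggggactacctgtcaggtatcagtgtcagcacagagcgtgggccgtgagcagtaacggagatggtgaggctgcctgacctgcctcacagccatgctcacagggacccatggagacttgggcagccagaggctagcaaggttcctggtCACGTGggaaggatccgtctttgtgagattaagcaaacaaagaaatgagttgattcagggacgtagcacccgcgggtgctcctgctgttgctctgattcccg
Ffar3: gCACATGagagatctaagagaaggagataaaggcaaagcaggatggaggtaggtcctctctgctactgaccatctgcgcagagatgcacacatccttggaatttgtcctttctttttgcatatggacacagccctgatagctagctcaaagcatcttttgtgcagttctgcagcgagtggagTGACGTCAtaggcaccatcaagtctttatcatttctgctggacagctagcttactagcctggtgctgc

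In GRCm38.p6 the windows are chr19:38096829-38097078, plus strand, for Ffar4, chr1:74278350-74278599, plus strand, for Gpbar1 and chr10:51631459-51631708, minus strand, for Gprc6a. Those of Ffar2, at the farthest upstream of its 4 annotated starts, and Ffar3 are chr7:30823776-30824025, minus strand, and chr7:30856179-30856428, minus strand. The CATGTG word begins 15 bases before the start of Gpbar1 and its reverse complement CACATG 192 bases before that of Gprc6a and 249 bases before that of Ffar3. A CATGTG also lies in the overlapping windows of the 2 annotated starts of Ffar2 farthest downstream, which are not shown, and begins 66 and 119 bases before them. In all, 12.3% of windows hold this word. CACGTG begins 102 bases before the start of Ffar2 and is in 6.02% of windows. TGACGTCA begins 68 bases before the start of Ffar3 and is in 1.55% of windows. The form CATGCG is in 5.46% of windows and the form CACGCG in 7.62%, and neither was in a receptor window. A match of letters is a description of the window and not a binding site.

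Other genes of nutrient sensing were considered next, as a list of 58 genes that holds other nutrient receptors, G proteins and calcium release, receptor desensitization, partners and targets of FXR, transporters and receptor activity-modifying proteins. All 58 had a probe, 20 exceeded the noise limit of every array and 25 that of 3 or more. In limma none of the 25 was called in either direction, against 0.00883% of all probes, and 1 had an unadjusted p under 0.05, against 5.41% of all probes. Their log2 changes lay between -0.22 and 0.23 with a median of 0.0044. The median was 0.00045 for all probes and 0.0014 for those detected on every array. The shares given beside the counts are over all probes, including those detected on no array. Of these 58, the 10 other nutrient receptors (Lpar5, Hcar1, Hcar2, Gpr84, Gpr142, the sweet and umami receptor subunits Tas1r1, Tas1r2 and Tas1r3, Gpr35 and the fatty acid receptor Cd36) lay above the limit on no array, with deposited intensities between -8 and 10.2.

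Transcripts for G proteins of the classes used by the detected receptors were present. Gnas, Gnaq, Gna11, Gnai1, Gnai2 and Gnao1 were detected on every array, whereas Gnat3, which encodes the taste G protein gustducin, was detected on 1. Gnao1 changed by 0.16 (SE 0.093, limma adjusted p = 0.938) and Gnai2 by -0.21 (SE 0.16, limma adjusted p = 0.953). Downstream of Gq, the phospholipase gene Plcb3 changed by -0.06 and the calcium release channel gene Itpr2 by -0.13 (limma adjusted p = 0.973 and 0.921). Trpm5, the cation channel of taste and tuft cells, lay above the limit on no array.

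Among the genes that switch receptors off, Rgs4, which encodes an accelerator of G protein GTP hydrolysis, had the smallest p. Its deposited intensities were 2638.8, 1978.3 and 2243.1 on the 4 h arrays and 1343.8, 1435.5 and 1283.4 on those at 16 h, and every 4 h array was brighter, which held for 49.2% of all probes detected on every array. The normalized log2 change was 0.23 (SE 0.075, limma adjusted p = 0.740). It passed the threshold without between-array normalization, at 0.72 (limma adjusted p = 0.0329), where 2308 probes were called higher and the median detected probe was at 0.39. With median scaling it passed at 0.64 (limma adjusted p = 0.0363), where 832 probes were called higher and that median was 0.30. Grk2, a receptor kinase, changed by 0.21 (SE 0.11, limma adjusted p = 0.921).

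Nr1h4 itself was detected on every array, and the 7 listed target and bile acid transport genes of FXR exceeded the noise limit of no array. These were Nr0b2, Fgf15, Fabp6, Slc51a, Slc51b, Slc10a2 and Abcb11, with deposited intensities between -9.1 and 12.6. Of the RXR partners of FXR, Rxrb was detected on every array, Rxra on 2 and Rxrg on none. Rxrb changed by -0.22 (SE 0.13, limma adjusted p = 0.941).

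Of the nutrient-coupled transporters and fatty acid binding proteins, Slc5a1, the sodium-glucose cotransporter SGLT1, Slc27a4 and Fabp5 were detected on every array, and Slc15a1, Slc2a2, Fabp1 and Fabp2 on none. Slc27a4 changed by 0.07 and Fabp5 by -0.09 (limma adjusted p = 0.967 for each). Fabp5 was called higher without between-array normalization, at 0.37 (limma adjusted p = 0.0429), which is below the median of 0.39 of detected probes in that setting. The receptor activity-modifying proteins Ramp2 and Ramp3 were detected on every array and changed by 0.01 and 0.03 (limma adjusted p = 0.997 and 0.992).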

How the data were processed

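Total RNA of synchronized mGLUTag cells (3 samples at 4 h, 3 at 16 h) was hybridized by the authors to a mouse whole-genome Illumina BeadChip. The deposited intensities are linear and background-subtracted; the authors left them without normalization between arrays, and the scanner software and its settings are not given in the sources used here. For testing, the authors name limma.

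After normexp correction (offset 50) they were quantile normalized, transformed to log2 and fitted in R 4.3.3 with limma 3.58.1 (time point as the only term, 45281 probes, Benjamini-Hochberg adjustment, threshold 0.05). Changes are 4 h minus 16 h and, by quantile normalization, relative to other probes; the offset shrinks changes of dim probes. A change is given for probes detected on at least 3 arrays. Scaled intensities were divided by the trimmed mean (10% from each end) of the probes detected on every array. Symbols were matched through RefSeq (GRCm38.p6); list genes were represented by their brightest probe. Every receptor is named; in each pathway group, the 2 genes with the smallest p among those detected on every array are given values. Others were named after their values were seen. Members and lists were chosen with earlier results of these data known. The limma fit and the noise limit were tested on simulated data, but background correction and quantile normalization were not. Arrays carry no counts, and their number limits the precision. Alternatives covered background correction, normalization, filtering, variance, array weights, a replicate block, an 18S block and each array left out.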

Additional observations from a re-analysis of the deposited data

How the results depend on the processing

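The 5 receptors above background stayed 5 under each alternative limit, except that asking for 3 or more arrays gave 7. Of the 7 receptors with a change, none passed the threshold except without between-array normalization. There Ffar4 (0.71), Gpr119 (0.59) and Nr1h4 (0.54) passed, where 2308 of all 45281 probes were called higher and 0 lower. The median of detected probes was then 0.39, so these values include the greater brightness of the 4 h arrays. Gprc6a was reversed there (0.17) and with median scaling (0.079). Ffar3 was reversed without background correction (-0.31) and with linear scaling (-0.36), both of which add no offset to dim values, and without 4 h replicate 1 (-0.03), without 4 h replicate 2 (-0.066) and without 16 h replicate 2 (-0.03). Gpr119 was reversed without 16 h replicate 2 (-0.028) and Nr1h4 without 4 h replicate 2 (-0.015). With 1 array left out, changes lay between 0.11 and 0.20 for Ffar1, -0.066 and 0.15 for Ffar3, 0.15 and 0.29 for Ffar4, 0.02 and 0.17 for Gpbar1, -0.028 and 0.20 for Gpr119, -0.21 and -0.09 for Gprc6a, and -0.015 and 0.16 for Nr1h4. Ffar1 met the filter of 3 arrays through the 4 h group, so its range is not that of a measured fold. Over all alternatives the limma adjusted p of Ffar4 was between 0.0420 and 0.999.

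Over all probes, 2 were called higher and 2 lower at 4 h. The counts were 19 and 10 without background correction, 14 and 16 with linear scaling, 832 and 0 with median scaling, 2308 and 0 without between-array normalization, 0 and 2 with cyclic loess, and 1 and 0 with trend and robust variance. They were 0 and 0 with an offset of 16, the filter at the noise limit, the replicate block, the block on 18S ribosomal RNA (the 3 arrays with the highest signal, chosen after seeing the data) and whenever 1 array was left out (limma). In the list of 58 genes, 1 was called higher with median scaling and 2 without between-array normalization, against 0. The cause of these differences was not tested.

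The labels do not say whether replicate numbers pair the arrays. For numbers 1, 2 and 3, the 4 h and 16 h deviations correlated at 0.18, 0.12 and -0.32. Such values cannot show whether arrays are paired, since deviations from a mean of 3 arrays depend on each other. In this balanced design the replicate block cannot move a log2 change, only its error. With it the adjusted p of Ffar4 (0.22) was 0.914 in limma, and no receptor was called. With the 18S block the changes were 0.13 for Ffar1, 0.06 for Ffar3, 0.21 for Ffar4, 0.08 for Gpbar1, 0.07 for Gpr119, -0.12 for Gprc6a and 0.09 for Nr1h4. Those of Ffar3, Gpr119 and Nr1h4 moved by more than 1.5 times.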

Other observations

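For each receptor above background, the genes with the most similar normalized log2 values over the 6 arrays were listed among 10868 genes detected on every array. Many genes were searched over few arrays that differ in time point, so the coefficients are a description. For Ffar4 these were Sh3gl2, Cyb561 and Bhlhb9 (Pearson's r = 0.99, 0.98 and 0.98). For Gpr119 they were Zw10, Syngr1 and Donson (0.99, 0.99 and 0.98), and for Gpbar1 they were Abhd2, Ssr2 and Mrpl45 (0.98, 0.98 and 0.97). For Nr1h4 they were Cept1, LOC100044087 and Tmem11 (0.99 each), and for Gprc6a they were Rgs7, Ppp6r1 (listed as SAPS1) and D630036H09RIK (0.99 each). No gene was named for more than 1 receptor.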
